A study of Mus musculus and Mus musculus
Rattus norvegicus with 30 samples.

Results

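The 10 genes described here, Axin2, Lef1, Tcf7, Tcf7l1, Tcf7l2, Sp5, Nkd1, Lgr5, Dkk1 and Notum, are transcriptional targets and feedback regulators of the Wnt/β-catenin pathway. They were chosen by symbol, and all 10 were found among the 19919 genes of the mouse embryonic stem cell (mESC) RNA tables and on both alleles of the mouse-rat cells. The study asked whether mouse and rat versions of Cdx2, a caudal-type homeobox transcription factor of trophectoderm and intestine, act alike. RNA was sequenced from mESCs labelled WT and from mESCs overexpressing mouse Cdx2 (mCDX2 OE), rat Cdx2 (rCDX2 OE) or 1 of 7 mutants of the rat protein, with 2 libraries for each of the 10 conditions. The mutants carry mouse-specific residues of the DNA-binding domain in rCdx2: change 1 replaces a tyrosine by phenylalanine, change 2 an alanine by serine, and change 3 removes an asparagine. They are named R1, R2, R3, R12, R13, R23 and R123 after their changes, and intact mCdx2 has all 3. RMES cells, which arose by fusing a haploid mouse with a haploid rat embryonic stem cell, gave 2 WT libraries, 1 mCDX2 OE library and 1 rCDX2 OE library, each counted separately on the mouse and the rat genome. Transgenes were Flag-tagged and delivered by lentivirus with a doxycycline-inducible promoter. The labels say only WT, whereas the study's text speaks of mESCs with and without doxycycline, so WT cells may have carried an uninduced transgene. It is not given whether the 2 libraries of a condition came from separate cultures, so p-values measure the spread between these libraries only.

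Wnt ligands act through Frizzled and Lrp receptors to stop the destruction complex, in which the kinase GSK3 marks β-catenin for degradation, and stabilised β-catenin then joins TCF/LEF factors on target genes. Several of these targets act back on the pathway at the ligand, the receptor, the destruction complex or the DNA. Culture conditions matter for every value below: according to the methods, all cells, WT included, were maintained with leukaemia inhibitory factor, a MEK inhibitor and the GSK3 inhibitor Chir99021, which activates the pathway below its receptors. Whether the medium stayed the same during induction is not given in the sources used here.

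Library totals were 74960057 to 94686029 counts in the 2 mESC WT libraries and 12698443 to 24315929 in the 18 induced ones. In RMES cells the mouse allele had totals of 36166038 to 41418817 counts and the rat allele 29453412 to 35249756. Cdx2 itself was 1.21 to 1.36 CPM (counts scaled to the library's effective total) in WT mESCs, 67.0 to 127 CPM with mCdx2 or rCdx2 and 37.2 to 147 CPM with the mutants. According to the methods, mESC reads were aligned to the mouse genome alone. Transcripts of rCdx2 and its mutants are rat sequence, so their counts may be less complete than those of mCdx2. This limits every comparison of Cdx2 RNA between mCdx2 and other constructs in mESCs. RMES cells labelled WT already held 127 and 129 CPM of mouse and 440 and 453 CPM of rat Cdx2. The mCDX2 library then had 968 CPM of mouse and 47.2 CPM of rat Cdx2, and the rCDX2 library 4.45 and 880 CPM, so the transcript of the other species was lower than in WT in each. The pluripotency marker Pou5f1 was 1469 to 1470 CPM in WT, 499.7 to 534.7 CPM with intact mCdx2 or rCdx2 and 641 to 942 CPM with the mutants. Sox2 was 466 to 491, 203 to 263 and 265 to 367 CPM and Nanog 539 to 541, 719 to 927 and 686 to 970 CPM in the same groups. The summed level of 6 fibroblast markers, genes that feeder cells express, was 34.3 to 34.4 CPM in WT and 1.28 to 4.42 CPM in the 18 induced mESC libraries. Of the 6, 5 were called lower (Col1a2, for example, at 10.5 to 11.3 CPM in WT and at most 0.58 CPM in the induced libraries), Dcn was at 0 with intact Cdx2, and the list's part in the differences from WT was not tested. In bulk samples, fewer cells expressing a gene and less RNA per cell cannot be told apart.

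Of the 10 genes, 9 passed the filter on low counts in mESCs, and Lgr5 did not. A gene was called against WT when edgeR's quasi-likelihood test over all 20 libraries gave a Benjamini-Hochberg adjusted p below 0.05 with more than a 2-fold difference. Lef1, Dkk1 and Notum moved by more than 2-fold on average over the 9 constructs, 1 upwards and 2 downwards, and 26.7% of all 16000 tested genes were called in that comparison. The members' median log2 fold change there was -0.26, against -0.02 over all tested genes. Tcf7l2 and Dkk1 were higher, and Lef1, Axin2, Tcf7 and Notum lower, in all 18 induced libraries than in both WT libraries, as the plot of CPM by condition shows for each gene. How many of all tested genes separate in this way was not counted, so it cannot be read as particular to the members. For the mean of the 9 constructs, 12220 of the 16000 genes were below an unadjusted p of 0.05 in the edgeR test.

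**Figure D1:**
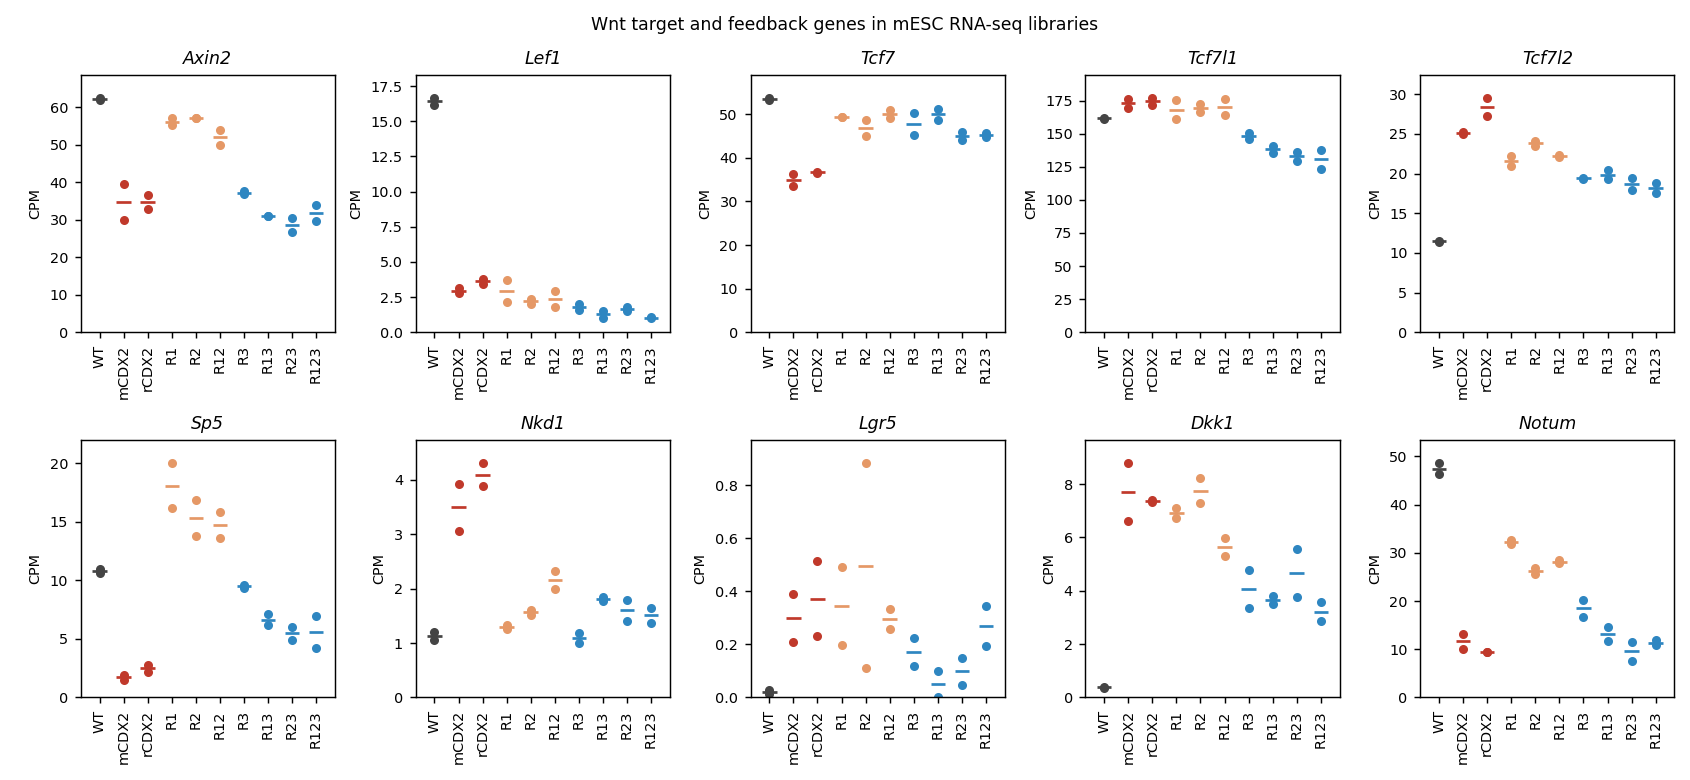
Expression of the 10 genes in the 20 mESC libraries. The y axis of each panel is CPM from 0; each point is 1 library and each bar the mean of 2; dark grey is WT, red intact mCdx2 and rCdx2, orange the mutants without change 3 and blue those with it. Lef1 fell with every construct and Dkk1 rose with every construct, whereas Sp5 was lowest with intact mCdx2 and rCdx2 and above WT in R1, R2 and R12.

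Lef1, a TCF/LEF factor that is itself induced by Wnt signalling, was 16.2 and 16.7 CPM in WT mESCs. It was 2.80 and 3.12 CPM with mCdx2, 3.46 and 3.81 CPM with rCdx2, and between 0.98 and 3.73 CPM in the 14 mutant libraries. No induced library came within 4-fold of the WT level. The log2 fold change was -2.48 ± 0.21 (SE) with mCdx2 (adjusted p = 2.99e-08), -2.18 ± 0.21 with rCdx2 (adjusted p = 9.3e-08) and -3.98 ± 0.26 with R123 (adjusted p = 2.2e-09), and Lef1 was called with all 9 constructs.

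Dkk1, a secreted antagonist that binds the Lrp co-receptors, went the other way. It was 0.37 and 0.41 CPM in WT, from 26 and 36 counts, and 6.61 and 8.78 CPM with mCdx2. With rCdx2 it was 7.34 and 7.40 CPM, and across the mutants it ranged from 2.87 to 8.21 CPM. The groups did not overlap for any construct. Its log2 fold change was 4.26 ± 0.23 with mCdx2 (adjusted p = 1.08e-10), 4.22 ± 0.23 with rCdx2 and 3.02 ± 0.26 with R123 (adjusted p = 5.02e-08), and it was called with all 9. The rise started from a low level: per kilobase of gene model, WT Dkk1 was at 0.16 CPM where Axin2 was at 11.3 CPM.

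Notum, a secreted enzyme that removes the lipid which Wnt proteins need, was 48.6 and 46.3 CPM in WT. It was 13.2 and 10.1 CPM with mCdx2 and 9.34 and 9.53 CPM with rCdx2. The mutants fell into higher and lower levels: the 6 libraries of R1, R2 and R12 had 25.7 to 32.6 CPM, and the 8 libraries with change 3 had 7.65 to 20.3 CPM. Notum was called with mCdx2 (log2 fold change -2.01 ± 0.16, adjusted p = 1.04e-08), rCdx2 (-2.33 ± 0.16) and the 4 mutants with change 3 (-1.36 to -2.28). With R1, R2 and R12 its log2 fold change was -0.56, -0.85 and -0.76, past the adjusted p but within 2-fold.

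Tcf7l2, the TCF factor best known from the intestinal crypt, was 11.4 and 11.5 CPM in WT and 25.0 and 25.3 CPM with mCdx2. It was 27.3 and 29.5 CPM with rCdx2 and 17.5 to 24.1 CPM with the mutants. The difference passed the adjusted p with each construct and the 2-fold limit with mCdx2 (log2 fold change 1.13 ± 0.08, adjusted p = 6.25e-09), rCdx2 (1.31 ± 0.08) and R2 (1.06 ± 0.09). The other 6 mutants were between 0.66 and 0.95.

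Sp5, a zinc finger factor that responds directly to Wnt signalling, changed direction between constructs. WT libraries had 10.63 and 11.01 CPM, mCdx2 1.924 and 1.496 CPM and rCdx2 2.19 and 2.79 CPM. R1 had 19.997 and 16.15 CPM, R2 16.8 and 13.8 CPM, and R12 15.8 and 13.6 CPM, all above WT. R3 had 9.39 and 9.64 CPM, and the libraries of R13, R23 and R123 lay between 4.19 and 7.13 CPM. Values were thus far below WT with intact Cdx2, above it with the 3 mutants that lack change 3, and below it to a lesser degree with the 4 that carry it. The log2 fold change against WT was -2.63 ± 0.22 with mCdx2 (adjusted p = 2.4e-08) and 0.73 ± 0.17 with R1 (adjusted p = 0.00136). Mutants that passed the adjusted p stayed within 2-fold of WT, at 0.50 for R2, 0.44 for R12, -0.69 for R13, -0.97 for R23 and -0.96 for R123, and R3 was at -0.19 ± 0.18 (adjusted p = 0.37). Without R123 replicate 2, Sp5 was at -1.36 with R123, and without R23 replicate 2 at -1.14 with R23, which takes both past 2-fold.

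Axin2, the scaffold of the destruction complex that Wnt signalling induces as a brake on itself, was 62.5 and 62.0 CPM in WT. It was 39.6 and 30.0 CPM with mCdx2, 36.7 and 33.0 CPM with rCdx2, 50.1 to 57.2 CPM in the 6 libraries of R1, R2 and R12, and 26.8 to 37.5 CPM in the 8 libraries with change 3. All induced libraries were lower than WT. The log2 fold change was -0.83 ± 0.11 with both mCdx2 and rCdx2 (adjusted p = 3.87e-06 and 3.72e-06), and it passed 2-fold only with R13 (-1.01 ± 0.11) and R23 (-1.12 ± 0.11). R123 was at -0.97, and R1 and R2 were at -0.15 and -0.12 with adjusted p of 0.24 and 0.323. These values lie close to the 2-fold limit: Axin2 was at -1.06 with mCdx2 without mCDX2 replicate 1, at -1.07 with R123 without R123 replicate 2, and at -0.996 with R13 without R13 replicate 1, so the first 2 become calls and the third is lost.

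Nkd1, which binds Dishevelled and restrains the signal, was low in WT, at 1.06 and 1.21 CPM from 75 and 106 counts. It reached 3.93 and 3.06 CPM with mCdx2 and 4.31 and 3.89 CPM with rCdx2. In the 14 mutant libraries it ranged from 0.9995 to 2.33 CPM, so none reached the level of any library with intact Cdx2. Nkd1 was called with mCdx2 (log2 fold change 1.63 ± 0.19, adjusted p = 1.17e-06) and rCdx2 (1.85 ± 0.19, adjusted p = 2.26e-07) and with no mutant. R12 was nearest, at 0.93 ± 0.20, and passed 2-fold at 1.02 without R12 replicate 1 or without WT replicate 2.

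The remaining TCF factors moved little in mESCs. Tcf7, an activating TCF, was 53.3 and 53.8 CPM in WT, 33.5 to 36.8 CPM with intact Cdx2 and 44.1 to 51.3 CPM with the mutants. Its log2 fold change was -0.62 ± 0.07 with mCdx2 and -0.55 ± 0.07 with rCdx2, below 2-fold in each. Tcf7l1, the main repressor of this family in embryonic stem cells, was 161 and 162 CPM in WT and 123.4 to 177 CPM in the induced libraries. It was called with no construct: the fold changes ran from -0.31 (R123, adjusted p = 0.00111) to 0.11 (rCdx2, adjusted p = 0.161). Per kilobase, the order in WT was Tcf7l1 (41.1 CPM), Tcf7 (20.4), Lef1 (1.87) and Tcf7l2 (1.31), and with mCdx2 it was Tcf7l1 (44.1), Tcf7 (13.3), Tcf7l2 (2.88) and Lef1 (0.34). Lef1 and Tcf7l2 thus exchanged places, and neighbours in both orders lay apart by more than the spread of their 2 libraries.

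Lgr5, the R-spondin receptor that marks intestinal stem cells, had 2 and 1 counts in the WT libraries and 0 to 11 counts in the induced ones. Summed over the 18 induced libraries it had 77 counts, which is 13.1 times the WT rate with a 95% exact binomial interval of 4.31 to 64.7 that covers counting error only. No construct had more than 0.88 CPM in any library.

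By construct, 6 of the 9 tested members were called with mCdx2 and 6 with rCdx2, against 33.4% and 34.5% of all tested genes. In the mutants without change 3, 2 members were called with R1, 3 with R2 and 2 with R12, where 23.2%, 23.4% and 23.7% of tested genes were called. Among those with change 3, 3 were called with R3, 4 with R13, 4 with R23 and 3 with R123, where the shares over all genes were 25.6%, 27.8%, 28.7% and 28.9%. Leaving out R12 replicate 1 or WT replicate 2 brought the count with R12 to 4, and leaving out R123 replicate 2 brought the count with R123 to 6, with 10 members then tested since Lgr5 passed the filter.

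**Figure D2:**
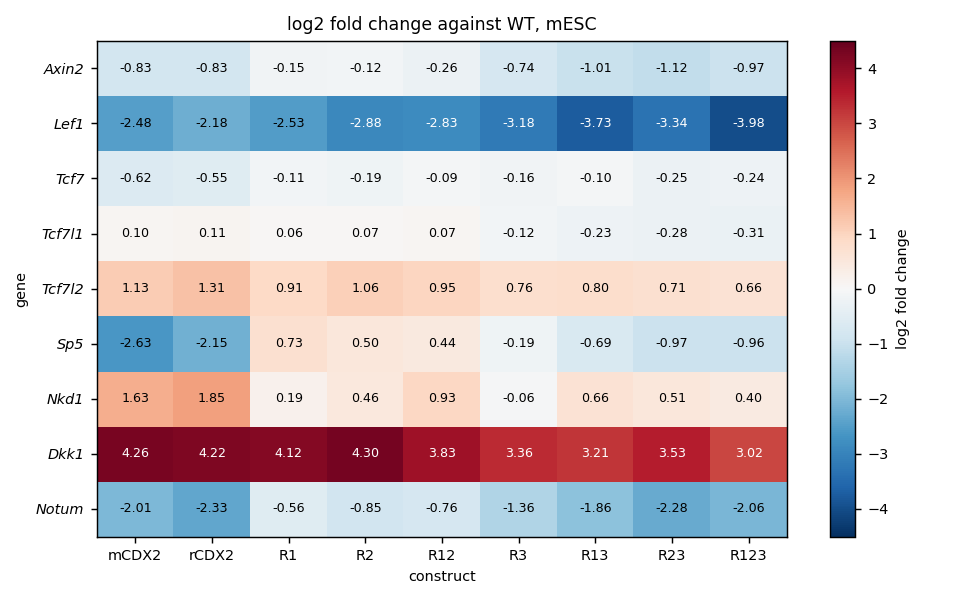
Log2 fold change against WT for the 9 tested genes (rows) with each construct (columns), from the edgeR fit over all 20 mESC libraries; the colour scale runs from -4.5 (blue) to 4.5 (red). Lef1 is negative and Dkk1 positive in every column, and Sp5 runs from -2.63 with mCdx2 to 0.73 with R1.

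Intact mCdx2 and rCdx2 were compared directly, since the mouse protein differs from the rat protein at all 3 residues. None of the 9 tested members differed between them by edgeR's quasi-likelihood test (adjusted p of 0.945 to 1), 0 were below an unadjusted p of 0.05, where the lowest was 0.0581 for Tcf7l2, and DESeq2 called 0. Over all tested genes 0.0188% were called, which is 3 genes, or 21 by DESeq2, and 857 were below an unadjusted p of 0.05. The 95% intervals give the differences that the data still allow. The log2 difference of mCdx2 from rCdx2 was -0.48 (-1.01 to 0.06) for Sp5, 0.00 (-0.22 to 0.22) for Axin2, 0.05 (-0.32 to 0.42) for Dkk1 and -0.29 (-0.77 to 0.18) for Lef1.

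Across all 9 constructs, every tested member varied among the constructs (quasi-likelihood F test on 8 contrasts, adjusted p from 1.1e-08 for Sp5 to 0.000817 for Lef1), where 56.9% of all tested genes did. A contrast added after the values were seen set the 7 mutants against intact mCdx2 and rCdx2. All 9 members differed in it, 4 higher and 5 lower in the mutants, beside 64.0% of all tested genes. Sp5 was 2.23 ± 0.14 higher on the log2 scale (adjusted p = 8.08e-10), Notum 0.78 ± 0.10 and Tcf7 0.42 ± 0.04. Nkd1 fell by 1.30 ± 0.11 (adjusted p = 4.59e-08), Lef1 fell by 0.88 ± 0.15 and Dkk1 fell by 0.62 ± 0.11. Axin2 was 0.21 ± 0.06 higher (adjusted p = 0.00897), a call that was lost without mCDX2 replicate 2 (0.12, adjusted p = 0.0741). Cdx2 RNA differed by -0.26 ± 0.27 in the same contrast (adjusted p = 0.422), and by -0.38 ± 0.17 with the replicate number as a block (adjusted p = 0.0673). Markers of cell state moved between these groups too: 10 trophoblast stem cell markers, a list that holds Cdx2, summed to 752 to 923 CPM with intact Cdx2 and 247 to 468 CPM with the mutants (193 to 194 CPM in WT). The 10 naive pluripotency markers summed to 3251 to 3604 CPM with intact Cdx2 and 4005 to 4988 CPM with the mutants (4355 to 4399 CPM in WT). Within that list Pou5f1 was 499.7 to 534.7 and 641 to 942 CPM, both below WT, whereas Nanog was above WT in both groups. The part of these markers in the members' differences was not tested. The labels name no batch, so a difference between sets of cell lines cannot be told apart from one between intact and mutant proteins.

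The R123 protein is rCdx2 with all 3 mouse-specific changes. A contrast of R123 with mCdx2, likewise added after the values were seen, called 7 of the 9 members, beside 42.4% of all tested genes. Sp5 was 1.67 ± 0.25 higher (adjusted p = 6.29e-05), Lef1 was at -1.50 ± 0.31, Dkk1 at -1.24 ± 0.21 and Nkd1 at -1.22 ± 0.22. Axin2 (-0.14, 95% interval -0.36 to 0.08) and Notum (-0.04, -0.38 to 0.29) were not called, and Axin2 was called at -0.32 without mCDX2 replicate 2. Cdx2 RNA was at -1.16 ± 0.50 in this contrast (adjusted p = 0.0725) and was called with the replicate number as a block (-1.27 ± 0.31, adjusted p = 0.0042), and its part in these differences was not tested. The R123 transcript is rat and that of mCdx2 mouse sequence, both counted on the mouse genome. An effect of mapping on the Cdx2 value was not tested.

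To separate the residues, an additive model with 1 term for each change was fitted to the 16 libraries of rCdx2 and its 7 mutants. For change 1 and for change 2, 0 of the 9 members and 0.00% of the 14394 tested genes were called by edgeR's quasi-likelihood test. DESeq2 also called 0 members, with 19 genes for change 1 and 2 for change 2. At an unadjusted p below 0.05 there were 3 members and 1854 genes for change 1, and 1 member and 1473 genes for change 2. These counts do not exclude effects: the 95% interval for Sp5 was -0.38 to 1.06 for change 1 and -0.64 to 0.80 for change 2. The model has no interaction terms and rCdx2 is its only line without a change. A gap between rCdx2 and all mutants therefore widens its intervals. In this model change 3 came with lower levels of 6 of the 9 members, where 37.5% of tested genes changed in either direction. Dkk1 fell by 0.84 ± 0.11 on the log2 scale (adjusted p = 3.41e-05), Lef1 fell by 0.96 ± 0.17, Axin2 fell by 0.63 ± 0.11 (adjusted p = 0.000403) and Notum fell by 0.83 ± 0.26 (adjusted p = 0.0182). Tcf7l1 fell by 0.32 ± 0.04 and Tcf7l2 fell by 0.33 ± 0.06. The change 3 estimates of Sp5 (-0.81 ± 0.37, adjusted p = 0.0953) and Nkd1 (-0.58 ± 0.27, adjusted p = 0.0984) were not called, and that of Tcf7 was 0.04 ± 0.06.

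The Sp5 estimate depended on rCdx2, which has no change yet the lowest Sp5 level of these 8 lines. Sp5 was at -1.37 for change 3 in the 14 mutant libraries alone (adjusted p = 2e-08), an alternative chosen after seeing the data, and it was called at -1.07 or -1.03 when either rCDX2 replicate was left out. The called falls of Notum and Axin2 were likewise not seen against rCdx2 alone. R3 differs from rCdx2 by change 3 only. Mean Notum was 9.44 CPM with rCdx2 and 18.5 CPM with R3, and mean Axin2 was 34.8 and 37.2 CPM. Intact mCdx2 also has change 3 but was not in this model. Its log2 difference from rCdx2 was 0.05 (95% interval -0.32 to 0.42) for Dkk1, 0.00 (-0.22 to 0.22) for Axin2 and 0.32 (-0.01 to 0.65) for Notum. It was -0.29 (-0.77 to 0.18) for Lef1, -0.01 (-0.15 to 0.13) for Tcf7l1 and -0.17 (-0.34 to -0.01) for Tcf7l2. Except for Tcf7l2, no interval reaches the fall estimated for change 3. Cdx2 RNA also moved with change 3, by -0.74 ± 0.26 (adjusted p = 0.0358, or 0.000538 with the replicate number as a block), and its part in the effect on these genes was not tested.

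**Figure D3:**
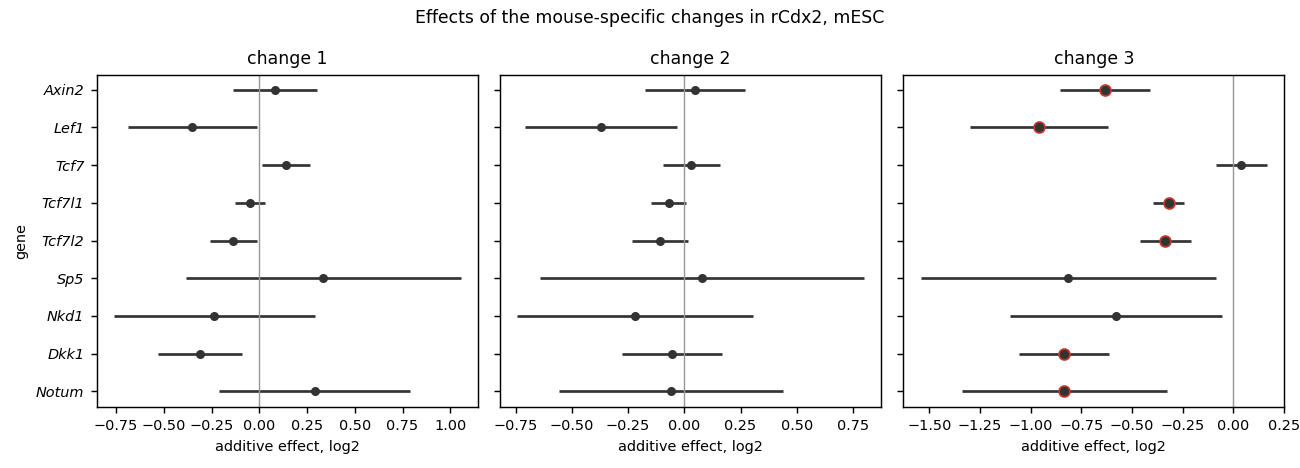
Additive effects of changes 1, 2 and 3 on the 9 tested genes in mESCs. The x axis is the log2 effect, points are estimates from 16 libraries, bars are 95% intervals, and points ringed in red have an adjusted p below 0.05; each panel has its own x scale. Called effects appear only in the panel of change 3 and all lie below 0, from -0.32 for Tcf7l1 to -0.96 for Lef1.

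RMES cells hold both genomes in 1 nucleus, and the mCDX2 and rCDX2 libraries were treated as 2 Cdx2 libraries against 2 WT libraries, separately for each allele, so that the spread within that group includes any difference between the 2 proteins. On the mouse allele all 10 genes were tested and 7 were called, 3 higher and 4 lower, where 44.5% of all tested genes were called. On the rat allele 9 were tested and 7 were called, 4 higher and 3 lower, where 42.5% of genes were called. Cdx2 itself, already present in RMES WT, was not called on either allele by the same test. Its log2 fold change was 1.93 ± 1.15 on the mouse (adjusted p = 0.136) and 0.055 ± 0.675 on the rat allele (adjusted p = 0.942). Each Cdx2 library had a transgene of 1 species only. WT levels were not those of mESCs: mouse Sp5 was 208 and 192 CPM here against 10.63 and 11.01 CPM there, and mouse Axin2 258 and 240 CPM against 62.5 and 62.0 CPM. The summed naive pluripotency markers on the mouse allele went from 7064 to 7069 CPM in WT to 2838 to 2878 CPM with Cdx2. Of these 10 genes 6 were called lower and 1, Dppa3, higher (1.66 on the log2 scale). The summed trophoblast stem cell markers went from 336 to 345 CPM to 1137 to 1959 CPM. That list holds Cdx2, at 129 and 127 CPM in WT, 968 CPM with mCdx2 and 4.45 CPM with rCdx2 on this allele. Of its 9 tested genes 5 were called higher and 0 lower, and Eomes was at -0.64. The summed intestinal epithelium markers went from 89.4 to 91.6 CPM to 5.51 to 5.69 CPM, but of the 4 tested genes of that list 2 were lower (Hnf4a at -7.44 and Lgals4 at -2.22 on the log2 scale) and 2 higher (Vil1 at 2.76 and Muc13 at 1.498). Fibroblast markers went from 22.3 to 27.1 CPM to 7.87 to 10.8 CPM, with 3 of 5 tested called lower and 1, Thy1, higher (1.26). The part of these lists in the results below was not tested.

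Sp5 fell furthest on both alleles. Its mouse allele went from 208 and 192 CPM to 6.55 CPM with mCdx2 and 7.39 CPM with rCdx2, and its rat allele from 120 and 116 CPM to 4.05 and 4.47 CPM. The log2 fold changes were -4.84 ± 0.08 (adjusted p = 1.35e-13) and -4.79 ± 0.09 (adjusted p = 8.49e-16). Tested as an interaction of allele and Cdx2, with the library as a block, they differed by -0.07 with a 95% interval of -0.25 to 0.12.

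Axin2 also fell on both alleles, with a larger fall on the mouse one. The mouse allele went from 258 and 240 CPM to 52.1 and 58.1 CPM (log2 fold change -2.18 ± 0.07), and the rat allele from 299 and 283 CPM to 66.5 and 81.5 CPM (-1.97 ± 0.08). In the interaction test they differed by -0.22, with a 95% interval of -0.32 to -0.11. Nkd1 rose on both: from 6.35 and 6.69 CPM to 17.6 and 17.1 CPM on the mouse allele (1.41 ± 0.11) and from 9.69 and 8.71 CPM to 19.8 and 19.5 CPM on the rat allele (1.09 ± 0.11). Lgr5 had 2 and 0 mouse counts in WT and 25 and 30 with Cdx2, and 2 and 2 rat counts in WT and 149 and 168 with Cdx2. The ratio of its rates was 22.4 on the mouse allele (95% exact binomial interval 5.92 to 190) and 59.9 on the rat allele (23.2 to 221), for counting error only.

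Of the 10 genes, 6 responded differently on the 2 alleles (interaction test, adjusted p below 0.05), 1 with a higher and 5 with a lower value on the mouse allele, where 62.6% of the 13605 genes paired by symbol did. Tcf7l2 moved in opposite directions. The mouse allele went from 38.0 and 40.8 CPM to 25.0 and 25.4 CPM, a log2 fold change of -0.64 ± 0.08 (adjusted p = 4.68e-06). The rat allele was at 1.06 and 1.20 CPM in WT, from 29 and 36 counts, and rose to 7.04 and 8.59 CPM (2.78 ± 0.21, adjusted p = 7.2e-09). The difference of the responses, mouse minus rat, was -3.45 ± 0.19 (adjusted p = 1.05e-17). Per kilobase, the mouse and rat alleles averaged 4.51 and 0.32 CPM in WT. Such levels, here and below, depend on gene models that differ between the genomes (8739 and 3486 bp for Tcf7l2). Each allele's CPM is also scaled to its own total, so the levels of the 2 alleles are only roughly comparable. With mCdx2 they were at 2.86 and 2.02 CPM and with rCdx2 at 2.91 and 2.47 CPM.

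Tcf7l1 rose on both alleles and more on the rat one. The mouse allele went from 81.7 and 77.1 CPM to 196 and 179 CPM (log2 fold change 1.24 ± 0.06), and the rat allele from 19.2 and 21.9 CPM to 176 and 185 CPM (3.13 ± 0.07). The responses differed by -1.91 ± 0.06 (adjusted p = 5.98e-24), and the levels per kilobase were 49.8 and 47.2 CPM with mCdx2 and 45.6 and 49.4 CPM with rCdx2 on the mouse and rat alleles. In mESCs, where Tcf7l1 was called with no construct, WT was at 41.1 CPM per kilobase.

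Lef1 fell on both alleles and more on the mouse one. It went from 54.3 and 51.5 CPM to 1.57 CPM with mCdx2 and 3.30 CPM with rCdx2 on the mouse allele (log2 fold change -4.44 ± 0.18), and from 175 and 176 CPM to 47.1 and 50.1 CPM on the rat allele (-1.85 ± 0.06). The difference was -2.61 ± 0.12 (adjusted p = 3.71e-20). Per kilobase, Lef1 led the TCF/LEF genes of the rat allele in WT (67.9 CPM, before Tcf7 at 41.1, Tcf7l1 at 5.49 and Tcf7l2 at 0.32). With mCdx2, Tcf7l1 led there at 47.2 CPM, followed by Tcf7 at 21.7, Lef1 at 18.3 and Tcf7l2 at 2.02. With rCdx2 the order was the same, and the libraries of Tcf7 and Lef1 lay apart by more than their spread. The order of these 2 genes depends on the division by length: in plain CPM with mCdx2, Lef1 (47.1) lay above Tcf7 (33.6).

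Notum and Dkk1 had few counts on the rat allele. Mouse Notum fell from 106 and 108 CPM to 17.2 and 17.0 CPM (log2 fold change -2.65 ± 0.06, adjusted p = 3.68e-12). Rat Notum was at 2.304 and 2.869 CPM in WT, from 63 and 86 counts, and at 1.65 and 2.01 CPM with Cdx2 (-0.50 ± 0.24, adjusted p = 0.0654), and the responses differed by -2.16 ± 0.20 (adjusted p = 1.42e-11). Mouse Dkk1 had 11 and 9 counts in WT and 9 and 18 with Cdx2 (0.13 ± 0.51, adjusted p = 0.813, 95% interval -0.87 to 1.14), and rat Dkk1 had 0, 0, 0 and 1 counts. Tcf7 fell by 0.50 ± 0.06 on the mouse and by 0.95 ± 0.08 on the rat allele, within 2-fold in each, and the responses differed by 0.43 ± 0.06. The smallest called difference was that of Axin2, at -0.22 ± 0.06 (adjusted p = 0.000897).

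**Figure D4:**
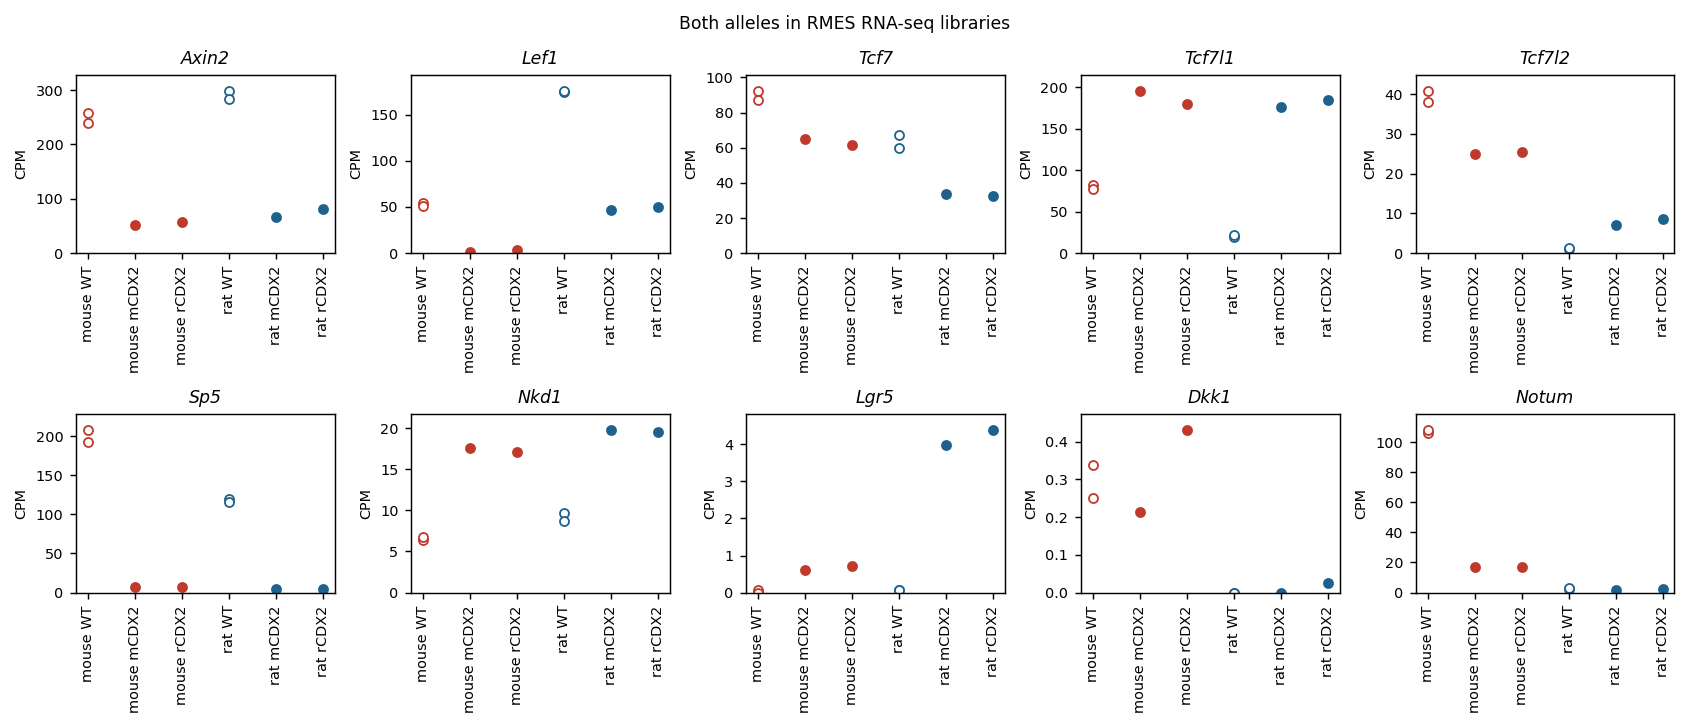
The 10 genes on the mouse (red) and rat (blue) allele of RMES cells. The y axis of each panel is CPM from 0, shared by both alleles, and each point is 1 library, open for WT and filled for mCDX2 or rCDX2. Sp5 and Axin2 fall on both alleles, whereas Tcf7l2 falls on the mouse allele and rises on the rat allele from 1.06 and 1.20 CPM.

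Other genes of the pathway were counted from lists. Of 85 such genes, 70 were tested in mESCs and 27 (38.6%) were called for the mean of the 9 constructs, beside 26.7% of all tested genes, with 13 up and 14 down and a median of 0.09 on the log2 scale. Of the ligands 3 of 10 tested were higher, led by Wnt7b (2.47), and 3 lower, led by Wnt8a (-3.78). With intact Cdx2 more ligands were higher: 7 of the 10 with mCdx2, led by Wnt4 (4.17), and 7 with rCdx2, led by Wnt6 (4.42), while 2 were lower with each, led by Wnt5b (-3.05 and -2.88). The ligands' median log2 fold change was 0.36 for the mean of the 9 constructs, 2.44 with mCdx2 and 3.14 with rCdx2. Among 15 receptors 3 were higher, led by Fzd6 (1.72), and 2 lower, led by Fzd7 (-1.38). Of 9 secreted inhibitors 3 were higher, led by Dkk3 (1.55), and 2 lower, led by Sfrp2 (-2.09). Of 6 genes of the R-spondin branch, Rspo3 was higher (1.20) and Lgr6 lower (-1.15). Among 12 genes of the destruction complex and cytoplasm only Gsk3b was called, at 1.15, and among 9 nuclear cofactors Pygo1 was higher (1.03) and Tle2 lower (-1.42). Of 9 other common targets 5 were lower, led by Myc (-2.40), and 1, Apcdd1, was higher (1.32), with a list median of -1.29. With mCdx2 alone 3 of these targets were higher and 3 lower (median -0.54), and likewise with rCdx2 (median -0.34).

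In RMES cells the ligands leaned upwards: 11 of 14 tested were higher and 1 lower on the mouse allele, led by Wnt9b (6.96 ± 1.27), and 9 of 14 were higher and 3 lower on the rat allele, led by Wnt10b (7.34 ± 1.14). The wide SE of these 2 leaves their rank among the ligands uncertain. Over all 85 genes, 46 of 76 tested (60.5%) were called on the mouse allele, 33 of them higher, and 37 of 68 (54.4%) on the rat allele, 28 of them higher, beside 44.5% and 42.5% of all tested genes. Called genes leaned upwards over the whole set too: 4787 of 7508 (63.8%) were higher on the mouse and 4140 of 6218 (66.6%) on the rat allele. Median log2 fold changes were 0.53 and 0.53, against 0.08 and 0.07 over all tested genes. Of the other common targets 3 were higher and 5 lower of 9 tested on the mouse allele (median -1.56), from Ascl2 (2.05) to T (-8.48), and 4 were higher and 3 lower of 7 on the rat allele (median 1.08), from Ascl2 (2.57) to Cdx1 (-4.43). The 4 self-renewal genes that Tcf7l1 is known to repress (Esrrb, Nanog, Tfcp2l1 and Klf2) were all lower on the rat allele, and on the mouse allele 2 were lower and 2 not called. Of the naive pluripotency markers, a list that holds these 4, 8 of 9 tested were lower on the rat and 6 of 10 on the mouse allele. Dppa3 was higher on the mouse allele (1.66). A part of Tcf7l1 in these falls was not tested. In mESCs Tfcp2l1 was higher (1.02) and Klf2 lower (-1.10).

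For each tested gene, the gene outside the list with the most similar mean log2 CPM over the 10 mESC conditions was found. Pearson's r was 0.979 for Nkd1 (Col23a1) and 0.987 to 0.994 for the other 8, with Nckap1l for Sp5, Zdhhc3 for Axin2 and Psd3 for Dkk1. Within the list, Tcf7l2 and Dkk1 were most alike (r = 0.953), followed by Axin2 and Notum (r = 0.948). With 16000 candidates and 10 points that share their libraries, these values are descriptions only.

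Chromatin was measured without replicates: 1 WT and 1 mCDX2 OE library of accessible chromatin (ATAC-seq) in mESCs, and 1 library each of Flag-tagged mCdx2 and rCdx2 binding (ChIP-seq) in mESCs and RMES cells, with no ChIP library of WT cells used here. Peaks within 30 kb of a gene start in the GRCm38 annotation were taken as near, and distances are of a peak's middle from the start, negative upstream. Of the 10 genes, 5 had a Cdx2 peak nearby in mESCs (16 peaks): Sp5 with 6, Lef1 with 4, and Axin2, Tcf7l1 and Tcf7l2 with 2 each. Nkd1, Lgr5, Dkk1, Notum and Tcf7 had none, although 72.4% of protein-coding genes had one. In RMES cells 6 genes had a peak on the mouse genome (9 peaks), where 63.7% of genes did, and 6 of these 9 overlapped an mESC peak. Dkk1 and Lgr5 each had 1 peak there, 2.6 and 3.5 kb downstream of the gene start and within the gene, with 28 and 34 mCdx2 reads. None of the 16 or 9 peaks differed by more than 2-fold between mCdx2 and rCdx2, where 0.766% of all mESC peaks and 1.74% of all RMES peaks did with at least 40 reads. Their median log2 ratios were -0.06 and 0.28, against -0.007 and -0.005 over all peaks.

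The strongest binding lay near Sp5: a peak at chr2:70494027-70494836, in an intron of Gad1os and 19.5 kb downstream of the Sp5 start, had 185 reads with mCdx2 and 166 with rCdx2, more than 95.1% of all peaks. No ATAC peak overlapped it, and the overlapping peak in RMES cells had 153 and 131 reads. At Tcf7l2 a peak in its intron at chr19:55746395-55746814, 4.8 kb downstream of the start, had 141 and 131 reads. Lef1 had 71 and 54 reads at chr3:131102657-131103034, at -7.6 kb, and Tcf7l1 74 and 63 reads at chr6:72805844-72806272, at -16.8 kb. Axin2 had 49 and 54 reads at chr11:108906868-108907225, at -13.3 kb.

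Accessibility near the genes was given by 101 ATAC peaks, of which 6 opened and 16 closed with mCdx2 (over 2-fold after scaling to equal totals, with at least 40 normalised reads). Over all 122350 ATAC peaks 9.56% opened and 14.3% closed, and the median log2 ratio was -0.137, against -0.205 for the 101. Opened peaks lay near 4 of the 10 genes and closed ones near 5, where 29.4% and 40.5% of protein-coding genes had one. Of the 6 opened peaks 4 overlapped a Cdx2 peak and of the 16 closed 0 did, where 58.3% of all opened, 2.97% of all closed and 11.5% of all other ATAC peaks overlapped one. Near Axin2, the peak that spans its bound site rose from 30 to 213 reads (log2 ratio 2.36 after scaling), and a second one, at -26.6 kb and also over a Cdx2 peak, rose from 49 to 181 reads (1.43), while 4 others closed. Near Tcf7l1, the bound site at -16.9 kb rose from 6 to 70 reads (2.94) and an intronic one, likewise bound, from 51 to 174 reads (1.32). Near Tcf7l2, 5 peaks closed, the largest drop being from 44 to 7 reads (-2.90) at -25.3 kb, and 1 intronic peak 7.7 kb downstream opened (21 to 62 reads, 1.09). The ATAC peak that overlaps the strongest Cdx2 peak of Tcf7l2, 4.7 kb downstream, went from 4 to 34 reads (2.42), which is 34.3 normalised reads and so under the minimum of 40. Near Lef1, 1 peak at -20.5 kb went from 3 to 48 reads (3.24) and none closed.

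Near Notum, 2 peaks closed, 1 of them at -2.5 kb (152 to 72 reads, log2 ratio -1.50), and 2 closed near Tcf7, of which the larger drop was from 80 to 45 reads (-1.25) at -3.5 kb. None of the 7 peaks near Sp5, the 4 near Dkk1, the 2 near Nkd1 or the 1 near Lgr5 met the criterion, although the RNA of Sp5, Dkk1 and Nkd1 was called with mCdx2. These counts have no replicate check, and with no scaling to the totals 12 peaks would open and 5 close, since the mCDX2 library had 8277850 reads in peaks and the WT library 6109353.

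**Figure D5:**
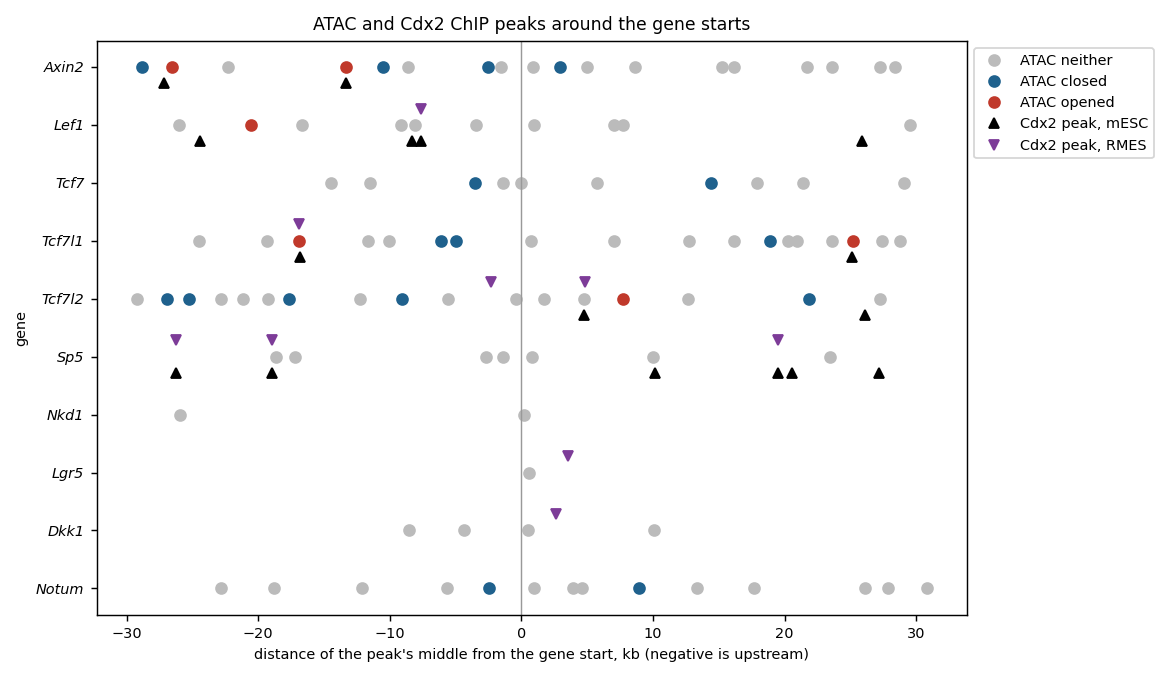
Peaks within 30 kb of the 10 gene starts on GRCm38. The x axis is the distance of a peak's middle from the start in kb, negative upstream, and each row is a gene; circles are ATAC peaks (red opened, blue closed, grey neither with mCdx2), upward triangles Cdx2 peaks in mESCs and downward triangles those in RMES cells. Cdx2 peaks in mESCs are present for Axin2, Lef1, Tcf7l1, Tcf7l2 and Sp5 and for no other row.

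Sequence under these peaks was searched for words of the caudal homeobox motif, CCATAAA and CAATAAA, on both strands (TTTATGG and TTTATTG on the other) in the 300 bases at the middle of each peak. Of the 16 peaks 9 held at least 1, or 56.2%, compared with 43.7% of all 91665 mESC peaks. A word of the TCF/LEF motif, CTTTGAT, was searched in the same way, as was its reverse complement, ATCAAAG. It was in 1 of the 16, or 6.25%, and in 7.42% of all. The 3 windows below are, for Axin2 and Tcf7l1, the bound site of 2 whose ATAC peak rose most and, for Tcf7l2, the most strongly bound site. The windows of the other bound and opened sites, at -27.1 kb of Axin2 and 25.1 kb downstream of the Tcf7l1 start, held 0 caudal words. The windows of the most strongly bound sites of Sp5 and Lef1 held 0 as well. The windows shown are on the plus strand of GRCm38.p6 with these words in capitals, and no 2 matches overlap. They lie at chr11:108906897-108907196, chr6:72805909-72806208 and chr19:55746455-55746754.
Axin2: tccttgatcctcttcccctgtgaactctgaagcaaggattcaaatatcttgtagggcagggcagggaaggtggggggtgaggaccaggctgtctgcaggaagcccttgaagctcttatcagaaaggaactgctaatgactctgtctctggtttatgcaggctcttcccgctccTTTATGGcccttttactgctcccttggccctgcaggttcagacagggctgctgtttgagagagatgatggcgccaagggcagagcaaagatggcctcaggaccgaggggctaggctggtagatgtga
Tcf7l1: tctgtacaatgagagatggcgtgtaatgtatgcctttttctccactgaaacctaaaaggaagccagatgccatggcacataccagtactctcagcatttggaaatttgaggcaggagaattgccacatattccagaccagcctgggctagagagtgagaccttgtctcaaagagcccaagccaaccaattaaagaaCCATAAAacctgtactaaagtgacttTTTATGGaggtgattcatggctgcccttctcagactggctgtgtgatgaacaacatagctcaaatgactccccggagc
Tcf7l2: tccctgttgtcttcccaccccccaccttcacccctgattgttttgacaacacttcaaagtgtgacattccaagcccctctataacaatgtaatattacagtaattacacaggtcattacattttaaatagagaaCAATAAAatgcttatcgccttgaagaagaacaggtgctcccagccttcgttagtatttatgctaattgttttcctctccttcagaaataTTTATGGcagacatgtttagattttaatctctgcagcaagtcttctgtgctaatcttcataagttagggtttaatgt

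Promoters from RefSeq (GRCm38.p6), from 250 bases before to 50 after a start, were found for 8 of the 10 genes, with none listed for Lgr5 and Notum. Of all 32851 promoters 3.73% hold the TCF/LEF word and 7.2% a caudal word. Among these genes only the Sp5 promoter had a TCF/LEF word, 104 bases before the start, and none had a caudal word or an overlapping Cdx2 peak. The 250 bases before the Sp5 start, chr2:70474673-70474922 on the plus strand, are shown with that word in capitals because Sp5 was the member whose level varied most between constructs. A match is a description of the letters and not of a bound site.
Sp5: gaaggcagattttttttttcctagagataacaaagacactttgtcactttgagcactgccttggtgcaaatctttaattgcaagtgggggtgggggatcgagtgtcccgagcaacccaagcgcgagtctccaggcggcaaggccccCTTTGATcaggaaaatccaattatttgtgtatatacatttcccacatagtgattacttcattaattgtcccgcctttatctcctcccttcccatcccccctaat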

How the data were processed

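RNA was sequenced in 20 mESC and 4 RMES libraries, open chromatin in 2 and Flag-tagged Cdx2 binding in 4. The authors deposited raw counts per gene and per peak (unit: counts). Per the submitters' notes they used cutadapt 2.6, STAR 2.7.0d, Bowtie2 2.3.4.3, Picard 2.6.0 and MACS2 on mm10 and rn6. Replicate 1 and replicate 2 of mESCs came from separate counting runs. Peaks were called on merged libraries, and the match of ChIP columns to mCdx2 and rCdx2 was inferred from their names. Rat peaks were not used here.

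Counts were analysed in edgeR 4.0.16 (R 4.3.3; TMM, filter on low counts, quasi-likelihood test, Benjamini-Hochberg over all tested genes), with DESeq2 1.42.0 as an alternative; SE is the fold change divided by the root of F. The allele comparison had the library as a block. Calls needed an adjusted p below 0.05 and, against WT and in RMES cells, over 2-fold. Scripts were tested on simulated data. Peaks within 30 kb of a start were scaled to total reads in peaks, adding 1 read for log2 ratios, with a minimum of 40 normalised reads. Intervals of ratios cover counting error only.

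Members and lists were chosen with earlier results of these data known. Named were all 10 members, the highest and lowest called gene of each list, the most alike gene of each member, and each member's most bound and most changed peak. Other peaks, and contrasts of the mutants with intact Cdx2, were added after values were seen.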

Additional observations from a re-analysis of the deposited data

Results flagged for a closer look

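In RMES cells 6 genes responded differently to Cdx2 on the 2 alleles in the edgeR interaction test, in which 62.6% of the 13605 genes paired by symbol were called. The mouse response minus the rat response, on the log2 scale, was -0.22 for Axin2, -2.61 for Lef1, 0.43 for Tcf7, -1.91 for Tcf7l1, -3.45 for Tcf7l2 and -2.16 for Notum, each from 4 libraries. For Tcf7l2 and Notum the rat allele had at most 36 and 86 counts in a WT library. RMES WT already held 127 and 129 CPM of mouse and 440 and 453 CPM of rat Cdx2, so these are not responses from an absence of Cdx2.

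Tcf7l2 was also lower with Cdx2 on the mouse allele of RMES cells (-0.64) but higher in all 18 induced mESC libraries, a difference between cell types that was not tested.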

How the results depend on the processing

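Of 263 alternatives for counts of members, 246 stayed within 1.5 times the reported count, and of 2057 for single members, 2043 kept both direction and call, 3 lost the call, 11 gained it and 0 reversed. Leaving out 1 library at a time gave 2 to 4 called members with R12 and 3 to 6 with R123. Peak counts depended on their settings. Opened ATAC peaks near members numbered 12 and closed ones 5 without scaling to totals, 3 and 6 with at least 100 normalised reads, 1 and 8 within 10 kb, and 18 and 41 within 100 kb. Cdx2 peaks numbered 4 in mESCs and 5 in RMES cells within 10 kb, 56 and 37 within 100 kb, and 5 and 2 with at least 100 reads. Fewer or more peaks enter by the construction of these settings.

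Same-numbered mESC libraries were not paired: correlations of replicate differences between conditions ran from -0.162 to 0.57 over 45 pairs, with 22 over 0.1. Among the 7 mutants alone the lowest was 0.195, a hint from the data of a shared difference, and with rCdx2 added it was -0.133. Cdx2 RNA was higher in replicate 1 (61.9 to 147 CPM) than in replicate 2 (37.2 to 68.8 CPM) in all 7 mutants. With the replicate number as a block, 6 members were called with mCdx2, 6 with rCdx2, 0 between them, 9 between mutants and intact Cdx2, 7 between R123 and mCdx2 and 6 for change 3, and no count of called members changed. Cdx2 RNA itself, an alternative chosen after seeing the data, became a call between R123 and mCdx2 under the block (-1.27, adjusted p = 0.0042). This value sets a rat against a mouse transcript, both counted on the mouse genome. WT and Cdx2 libraries of RMES cells could not be paired because each Cdx2 construct had 1 library, while both alleles of a library were paired in the allele comparison. WT mESC libraries were deeper than induced ones, and Lgr5 in mESCs and Dkk1 on the rat allele were too low to test.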
